A study of Mus musculus with 8 samples.

Results

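Small RNAs annotated to B3 SINEs were examined in a pooled list of distinct small RNA sequences from mouse testes. Members were all sequences whose annotation was B3 or its subfamily B3A, chosen by that name alone. They numbered 74516 of 6246223 sequences in the list, 47778 for B3 and 26738 for B3A. The 8 libraries described for the series were single libraries of testes from homozygous and heterozygous tdrd6-KO mice at 18 dpp, at 25 dpp and at 6 weeks, and from homozygous and heterozygous tdrd1-KO mice at 18.5 dpc, where dpp and dpc count days after birth and after conception. All controls were heterozygous, so every library carried at least 1 mutant allele, and no promoter, strain or pooling of animals was given in the labels. RNA was size selected to between 19 and 33 nt. The list ties no sequence to a library and gives no read number, so homozygous and heterozygous testes were not compared, and each value below counts distinct sequences and not RNA abundance. Shares carry exact 95% intervals (Clopper-Pearson) for counting error only; overlapping fragments are not independent, depth per library is unknown, and no test was run.

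B3 is a rodent family of short interspersed elements, an older relative of the B2 elements whose young copies are still close to one another in sequence. B2-type SINEs derive from a transfer RNA and are copied by RNA polymerase III from an internal promoter made of box A and box B, and they move only with the help of L1 proteins. In the male germ line, PIWI proteins carry piRNAs that usually begin with U, written T in the list; when one piRNA guides the cut that makes the next, the new 5' end lies 10 nt into the old one on the opposite strand, which places A at position 10 across from the first U. TDRD1 and TDRD6 are Tudor domain proteins that bind PIWI proteins through methylated arginines.

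The first set of sequences shows what such a 10 nt overlap looks like between B3 or B3A sequences that mapped to 1 position each. Capitals mark the 10 bases shared with the partner on the other strand. Positions are in GRCm38, from an exact match to GENCODE M21 transcripts. Pair 1 lay at chr5:113325126-113325155 (plus strand) and chr5:113325111-113325135 (minus strand) in the exon of Gm43353, a gene of unsettled class (TEC) counted here with the long noncoding RNAs. Pair 2 lay at chr17:28896613-28896637 (plus) and chr17:28896596-28896622 (minus) in the 3' UTR of 4930539E08Rik, a coding gene on the minus strand. Pair 4 lay at chr7:30180129-30180153 (plus) and chr7:30180111-30180138 (minus) in the noncoding gene Gm5113, and pair 3 in the noncoding gene 1700052K11Rik at chr11:105179941-105179971 (plus) and chr11:105179924-105179950 (minus).
pair 1 plus: CCGAGTTTGAtcccccacacccacacggca
pair 1 minus: TCAAACTCGGttcctctgcaagagc
pair 2 plus: TGGCTTCCGTggatactgcactcat
pair 2 minus: ACGGAAGCCAgaagagggtgctgtatc
pair 3 plus: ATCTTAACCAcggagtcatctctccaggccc
pair 3 minus: TGGTTAAGATtggcactgttcttgggt
pair 4 plus: TGCAGAAGACcggagtttggttccc
pair 4 minus: GTCTTCTGCAgaagcaacaagggctctt
In each pair 1 strand began with T, and the complementary overlap then requires A at position 10 of the other. The pairs are examples only, taken from the 9 left without the gene AC140207.2, where another overlap had 11 pairs. The T-first strand was the minus strand in pairs 1 and 3 and the plus strand in pairs 2 and 4. It was also the strand with more lengths in the list, with 8, 4, 3 and 2 lengths for pairs 1 to 4 against 1 for each partner.

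The next set shows the 5' ends that occurred in most lengths, with bases 1 and 10 in capitals; each is printed at its shortest length, 24 nt. End 1 was at chr5:113325108-113325131 on the minus strand, antisense to Gm43353. Ends 2 and 4 were at chr11:50941425-50941448 and chr11:50941386-50941409 on the minus strand, in the sense direction of the 3' UTR of 4933414I15Rik. End 3 was at chr7:73837757-73837780 on the plus strand, in the sense direction of the long noncoding RNA Gm21269.
end 1: ActcggttcCtctgcaagagcagc
end 2: TtgtgcagaTgctgaaataaccta
end 3: TatgtctatGagggtgtcaatgcc
end 4: TgactggcaTcgagtgttcttagc
End 1 was found at 10 lengths, every length between 24 and 33 nt, ends 2 and 3 at 9 lengths and end 4 at 8. Ends 2 to 4 began with T and end 1 with A, and none of the 4 had A at position 10. End 1 began 4 nt downstream, on the same strand, of the T-first end of pair 1.

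The last set shows members that hold a polymerase III box, in capitals, in either direction of the element. Box A was searched as GCTCAG, any base and GGTT, and box B as GGTTC, any base, A, any base and TCC, each without a gap and on both strands. The 2 boxes do not overlap in the element. The box B examples lay at chr11:94542024-94542050 (minus strand) in the 3' UTR of Rsad1 and at chr16:17485443-17485470 (plus strand) in the 3' UTR of Crkl, which encodes an SH2 and SH3 domain adaptor, and both ran in the direction of the gene. The box A examples lay at chr7:16890118-16890142 (plus strand), antisense to the noncoding gene 2700080J24Rik, and at chr2:31151094-31151120 (minus strand), in the direction of the noncoding gene D330023K18Rik.
box B sense: tagagaaccagGGTTCAAGTCCcagca
box B antisense: tactctgtgggttctaGGAATTGAACCt
box A sense: taaatgGCTCAGTGGTTaagaatac
box A antisense: tAACCACTGAGCagtgtctctaaccca

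Most B3 and B3A sequences had the length and the first base of piRNAs. Of all members, 57407 (77.0%) were between 24 and 33 nt long, 37264 for B3 and 20143 for B3A, and 27 nt was the most frequent length. Of these piRNA-length members, 76.2% (75.8 to 76.5) began with T. B3 and B3A were alike in this, with 76.2% (75.8 to 76.7) and 76.0% (75.4 to 76.6). Read against other lists of the same length range, the share was higher than the 65.5% of young B2 (B2_Mm1a, B2_Mm1t and B2_Mm2), the 70.5% of young B1 (B1_Mus1 and B1_Mus2), the 70.4% of MIR elements and the 69.4% of unannotated sequences. It was lower than the 77.6% of the B4 group (B4, B4A, RSINE1 and ID_B1, which are made in part of tRNA-like sequence) and the 78.4% of mRNA sequences. The intervals of B3 with B3A and of each of these lists were apart, but the lists differ in base composition, whose part was not tested.

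The share beginning with T differed with length. It was 26.3% at 15 nt, 41.9% at 20 nt, 60.6% at 23 nt, 64.8% at 24 nt and 76.0% at 25 nt, and it was highest at 27 nt, with 78.4% (77.6 to 79.1). At 33 nt it was 70.04% (65.6 to 74.2). The 8097 members of 19 to 23 nt stood between these, with 49.9% beginning with T and 64.0% mapping to 1 position, against 90.6% of piRNA-length members. After the first base, position 2 was G in 35.7% and A in 31.7% of piRNA-length members.

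**Figure D1:**
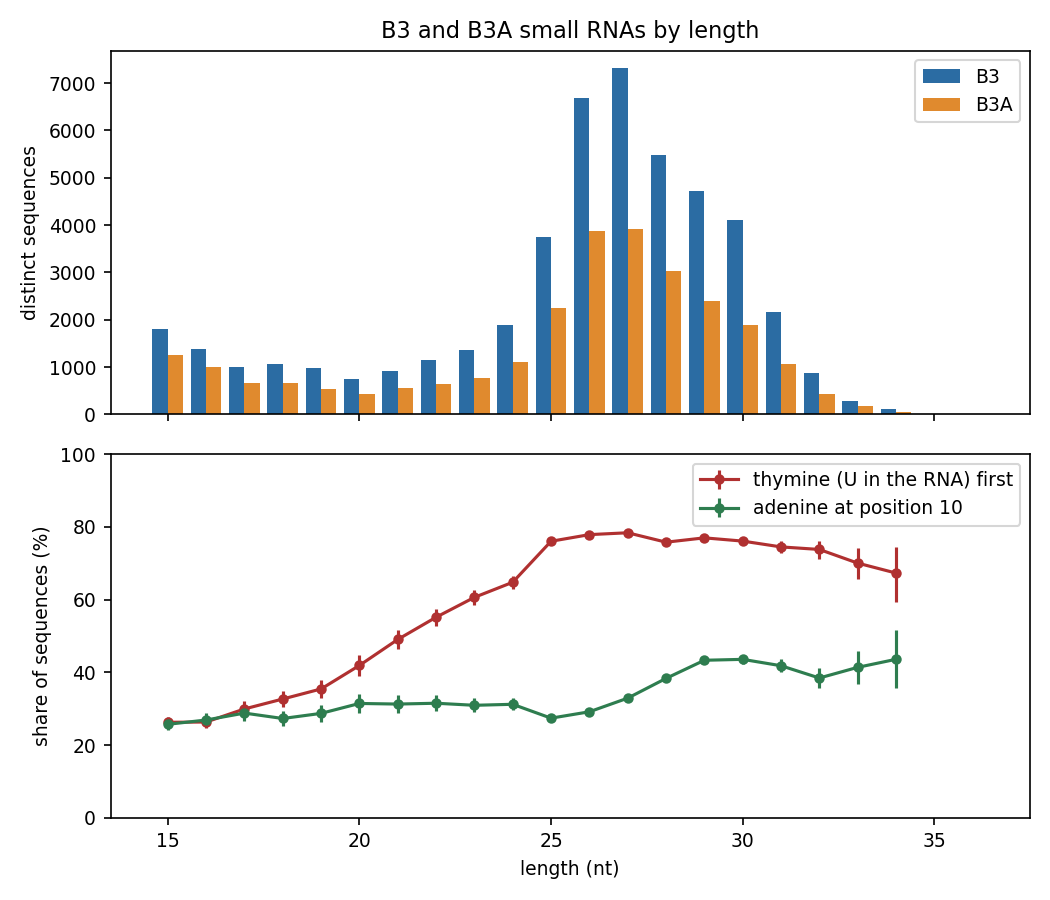
Number of distinct B3 and B3A sequences at each length (upper panel) and the share with thymine first or adenine at position 10 among both together (lower panel, lengths with at least 100 sequences), with bars for the 95% interval of counting error. The share with thymine first climbs between 15 nt (26.3%) and 27 nt (78.4%), while adenine at position 10 is, among piRNA lengths, lowest at 25 nt (27.4%) and highest at 30 nt (43.6%).

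Position 10 also departed from its neighbours. A stood there in 35.5% (35.1 to 35.9) of piRNA-length members, against 23.2% at position 9 and 24.1% at position 11, an excess of 11.8 percentage points over the mean of these 2 positions. B3 had 36.8% (36.3 to 37.3) and an excess of 12.7 points; B3A had 33.0% (32.4 to 33.7) and an excess of 10.2 points. B3 and B3A thus lay between the young SINEs, with an excess of 18.9 points in young B2 and 16.9 points in young B1, and the older or non-repeat lists, with 5.24 points in the B4 group, 1.04 points in mRNA and 0.761 points in MIR. These differences between lists are descriptions without a test.

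A at position 10 was slightly less frequent with T first than without it. Members that did not begin with T had A at position 10 in 37.0% (36.2 to 37.8) and those that began with T in 34.99% (34.5 to 35.4), whereas the shares in young B2 were 49.2% and 37.0%. In B3 alone they were 38.4% and 36.3%, in B3A alone 34.3% and 32.7%. The B4 group had 35.2% and 29.3%, MIR 35.8% and 25.7%, mRNA 28.0% and 25.2%, and unannotated sequences 31.6% and 27.2%. Young B1 went the other way, with 39.9% without T first and 46.3% with it. A at position 10 went with length as well: 27.4% of 25 nt members and 43.6% of 30 nt members had it. The 5062 members that had A at position 10 but did not begin with T averaged 27.84 nt, 0.436 nt longer than the 28418 with T first and no A at position 10, which averaged 27.40 nt, and their most frequent lengths were 28 and 27 nt.

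**Figure D2:**
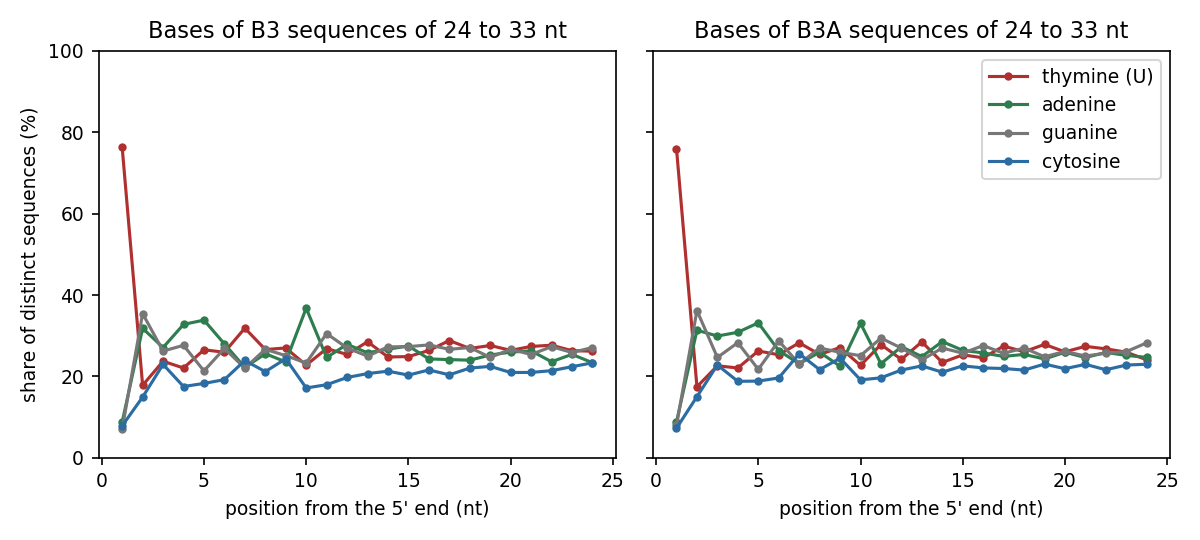
Share of each base at positions 1 to 24 from the 5' end among the 37264 B3 sequences (left) and the 20143 B3A sequences (right) of 24 to 33 nt. Thymine stands at position 1 in 76.2% and 76.0%, and adenine peaks at position 10, at 36.8% in B3 and 33.0% in B3A.

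Partners on the opposite strand were more frequent at a 10 nt overlap than at any overlap from 11 to 20 nt. The 57407 sequences had 42841 distinct 5' ends (the first 20 nt), about 1.34 sequences per end. Of these ends, 30.5% (30.04 to 30.9) had a partner in the same list at 10 nt, against a mean of 20.98% over the 10 longer overlaps (SD 0.913, lowest 19.9%, highest 22.9%). The value at 10 nt was thus 1.45 times the mean and above the highest of the other overlaps. The same held within each name, with 29.2% against 19.1% in B3 (1.53 times) and 18.4% against 11.8% in B3A (1.56 times), and for members that mapped to 1 position, with 27.8% against 18.5% (1.50 times). Only 10 bases were compared at each overlap, so copies of the element elsewhere in the genome also count as partners.

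Ends with and ends without A at the pairing base both had more partners at 10 nt. Since most 5' ends begin with T, an A at the pairing base makes a match easier at any overlap, so the same base was required at every overlap. This made only 1 side of the comparison equal. Only at 10 nt does the first base of an end, mostly T, face position 10 of its partner, where A is more frequent. The part of this in the ratios below was not tested. With A at the pairing base, 52.9% (52.1 to 53.7) of ends had a partner at 10 nt, against a mean of 39.1% at longer overlaps (SD 1.29, highest 41.7%), a ratio of 1.35, with 1.41 in B3 and 1.52 in B3A. Without A there, 18.8% (18.3 to 19.2) had a partner at 10 nt, against a mean of 14.7% (SD 1.13, highest 17.2%), a ratio of 1.28. For ends that mapped to 1 position the ratios were 1.38 with A and 1.32 without it. With A barred at position 10 alone, 16.2% (15.7 to 16.6) of such ends had a partner at 10 nt, against a mean of 17.9% at longer overlaps. That choice lowers the value at 10 nt, since a T-first partner there must face an A. Members with a partner at 10 nt made up 19009 sequences: 59.96% of them had A at position 10, 45.5% could be placed on a consensus of the element and their mean length was 27.83 nt, whereas the 38398 members without a partner had values of 23.3%, 22.7% and 27.40 nt. The contrast in A at position 10 follows in part from the definition, since a T-first partner at 10 nt must face an A. Members with a partner at longer overlaps were not described in this way. The contrasts in placed share and length are therefore not shown to be particular to 10 nt. T stood first in 75.8% of those with and 76.3% of those without a partner.

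B3 and B3A ends also found partners outside their own family. Among young B2 ends, 12.8% (12.5 to 13.2) of B3 and B3A ends had a partner at 10 nt, against a mean of 8.89% at longer overlaps (1.44 times). With partners from the B4 group the values were 15.6% and 11.2% (1.39 times), and with MIR partners 4.38% and 3.17% (1.38 times). Young B2, the B4 group and MIR held 27268, 62241 and 20649 5' ends. A longer list gives more matches of 10 bases at any overlap, and unrelated sequence can match too. The shares therefore do not rank the lists as sources of partners. With A required at the pairing base throughout, the ratio was 1.48 for young B2 partners, 1.17 for B4 group partners and 1.13 for MIR partners, and for ends that mapped to 1 position it was 1.57, 1.18 and 1.04 in the same order. The ratio with young B2, the closest relatives compared, therefore hardly moved with this requirement, and those with the other lists came nearer to 1.

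**Figure D3:**
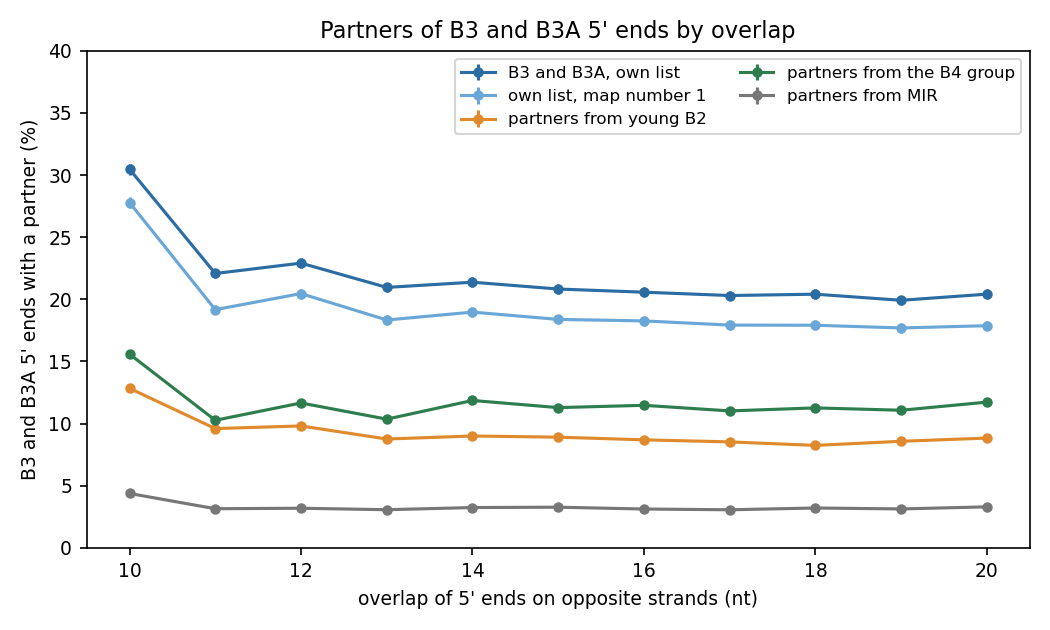
Share of B3 and B3A 5' ends with a partner on the opposite strand at each overlap from 10 to 20 nt, for partners in the same list, in the same list with map number 1, in young B2, in the B4 group and in MIR; bars, where visible, show the 95% interval. The own-list curve stands at 30.5% at 10 nt and between 19.9% and 22.9% at longer overlaps.

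Both strands of the element gave piRNA-length sequences, in unequal numbers. A majority consensus built from the members themselves was 174 nt long for B3, with box A at positions 17 to 27 and box B at 59 to 69, and 135 nt long for B3A, with box A at 18 to 28 and no match to the box B motif. At 70% identity without gaps, 17356 piRNA-length members (30.2%) could be placed, 34.9% of B3 and 21.6% of B3A. The same procedure placed 0.067% of mRNA sequences on the B3 consensus and 43.0% of young B2 sequences. On the B3A consensus it placed 30.3% of young B2 sequences. Young B2 was thus placed more often than the members themselves. Identity to the consensus, here and below, therefore does not separate likeness to B3 or B3A from likeness to young B2. Of placed B3 members 38.9% (38.0 to 39.7) were sense to the element, 5054 sense and 7947 antisense. B3A was the other way round, with 57.8% (56.3 to 59.3) sense, 2517 sense and 1838 antisense. At 80% identity the sense shares were 35.1% in B3 and 60.8% in B3A, and at 90% identity 36.6% in B3 and 73.5% (67.8 to 78.7) in B3A, where 268 members were left. With 1 sequence per 5' end at 70% identity, both shares were nearer to 50%, at 39.8% in B3 and 54.6% (52.9 to 56.3) in B3A. A sense majority on the B3A consensus was not particular to B3A: the 14687 young B2 sequences placed on it were 61.6% sense. Of the B4 group sequences tried only 528 (1.28%) were placed on it, 58.9% of them sense. On the B3 consensus both lists were near balance, with 49.98% of 20854 young B2 and 50.7% of 487 B4 group sequences.

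The number of T-first sequences per T of the consensus differed less between the strands than the number of sequences. Only positions that leave room for a sequence of 24 nt were counted. On the B3 consensus these hold 30 T and 48 A, the A being T of the antisense strand. Placed B3 members that began with T numbered 3580 sense and 5944 antisense, which is 119 and 124 per such position. The B3A consensus holds 26 T and 22 A, and its 1784 sense and 1404 antisense T-first members gave 68.6 and 63.8. The part of base composition in the strand shares was not tested. Antisense members began with T slightly more often than sense members, with 74.8% (73.8 to 75.7) against 70.8% (69.6 to 72.1) in B3 and 76.4% (74.4 to 78.3) against 70.9% (69.1 to 72.6) in B3A. A at position 10 was found in 42.8% of antisense and 41.4% of sense B3 members, whose intervals overlap, and in 43.1% (40.8 to 45.4) of antisense and 34.3% (32.5 to 36.2) of sense B3A members.

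Members that hold an exact box motif were mostly antisense. Box B stood in 134 members in the sense direction and in 268 in the antisense direction, a sense share of 33.3% (28.7 to 38.2), and 396 of these 402 were B3 and only 6 B3A. Box A stood in 132 sense and 270 antisense members, 32.8% sense (28.3 to 37.7), with 31.3% in B3 and 35.2% (27.9 to 43.1) in B3A. This interval of B3A lay below that of its placed members as a whole (56.3 to 59.3). It holds for the 162 B3A members with the exact motif and not for that stretch of the element, since placed B3A members whose midpoint fell in the first 45 bases, which include box A, were 56.9% sense (54.4 to 59.3). Young B2 had 704 sense and 397 antisense members with box A, 63.9% sense (61.0 to 66.8), an interval apart from that of B3 and B3A. With box B it had 24 sense and 22 antisense members, 52.2% sense (36.9 to 67.1), an interval that overlaps theirs. Each motif was held by 0.7003% of B3 and B3A members, against 0.00605% of mRNA sequences for box A and 0.0117% for box B. These mRNA sequences held the motif in the sense direction in 41.7% (27.6 to 56.8) of 48 for box A. For box B it was 29.0% (20.1 to 39.4) of 93, and both intervals overlap those of B3 and B3A. Where a member held a box and was placed on the consensus, both gave the same strand in 324 of 324 cases for box A and 351 of 351 for box B. The consensus was extended from parts of these motifs and holds them itself. This agreement therefore follows largely from its construction and is not independent support for the strand.

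The 5' ends were concentrated at a few positions of the element. In B3 the most used was antisense position 108, with 632 members or 7.95% of the antisense strand, against a mean of 45.7 per position. Antisense positions 71 and 114 followed with 464 and 393 members. On the sense strand position 27, the last base of box A, had 289 members, position 45 had 248 and position 19 had 211, against a mean of 29.0. These positions are T in the consensus strand read, and between 96.5% and 99.4% of their members began with T.

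Several of these positions faced another at a 10 nt overlap. Sense position 45 with 248 members faced antisense position 54 with 332, antisense 108 faced sense 99 with 197, and antisense 114 faced sense 105 with 116. Antisense 71 with 464 faced sense 62 with 101, and sense 19 with 211 faced antisense 28 with 98. Between 91.1% and 96.3% of members at sense 45 and 19 and at antisense 108, 114 and 71 had A at position 10. Sense position 27 faced antisense position 36, which held 19, and 5.19% of the members at sense 27 had A at position 10. Members that share a 5' position also share the base of the element at position 10, so these shares largely report that base. Its part in the facing positions was not tested. In B3A sense position 101 with 117 members faced antisense 110 with 97, sense 46 with 123 faced antisense 55 with 78, and sense 28, the last base of box A, held 151 members and faced 20. Over all positions, the products of sense and antisense numbers at 10 nt ranked first among overlaps from 1 to 24 nt, at 203% of the mean over these overlaps in B3 (next 113%, at 4 nt) and 167% in B3A (next 137%, at 14 nt).

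**Figure D4:**
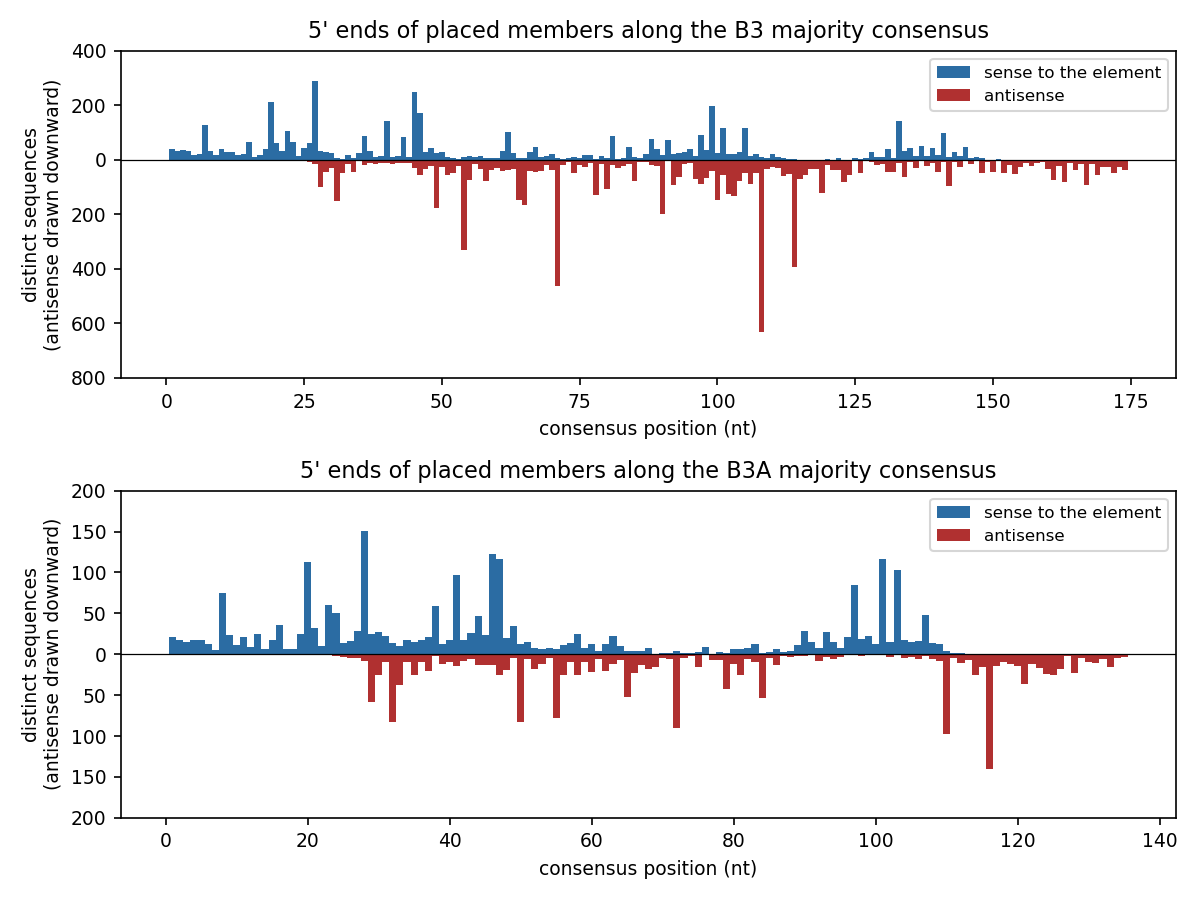
Number of placed members whose 5' end lies at each position of the B3 consensus (upper panel) and the B3A consensus (lower panel), sense upward and antisense downward. Antisense position 108 of B3 stands out with 632 members, and sense positions 27 (B3) and 28 (B3A), at the end of box A, lead the sense strands with 289 and 151.

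Members closer to the consensus and members with many copies had more A at position 10 in B3. In B3A the share took no steady course with copy number and did not differ clearly with identity. In B3 the share was 38.9% (37.7 to 40.1) at 70 to 80% identity, 43.8% (42.4 to 45.1) at 80 to 90% and 51.9% (49.3 to 54.5) at 90 to 100%. In B3A it was 37.9%, 38.1% and 39.2% (33.3 to 45.3) in the same classes. By map number, the number of genomic positions given by the authors, B3 had 36.03% at 1 position, 40.8% at 2 to 10, 47.1% at 11 to 100 and 48.4% (42.1 to 54.8) above 100. B3A had 32.8% (32.1 to 33.5) at 1 position and 37.9% (34.6 to 41.2) at 2 to 10, intervals that were apart. Above that it had 35.7% (29.2 to 42.7) at 11 to 100 and 29.0% (14.2 to 48.0) above 100, the last from 31 sequences. The share beginning with T ran the other way in B3, with 76.7% at 1 position and 73.9% at 2 to 10. It was 70.3% at 11 to 100 and 62.3% (56.0 to 68.3) above 100. In B3A it was 76.0%, 75.8%, 73.4% and 74.2% (55.4 to 88.1) in the same classes, with overlapping intervals. For B3 and B3A together it was 76.5% at 1 position and 63.6% (57.7 to 69.2) above 100.

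Most members had a single genomic position. Of piRNA-length members 90.6% mapped to 1 position, 88.4% of B3 and 94.5% of B3A, against 36.4% of young B2, 44.0% of young B1, 93.9% of the B4 group and 98.1% of MIR. Only 283 members mapped to more than 100 positions and 52 to more than 1000, up to 14344 for a B3 sequence of 25 nt. Mean identity to the consensus was 78.3% for placed members with 1 position and 86.9% for those with more.

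**Figure D5:**
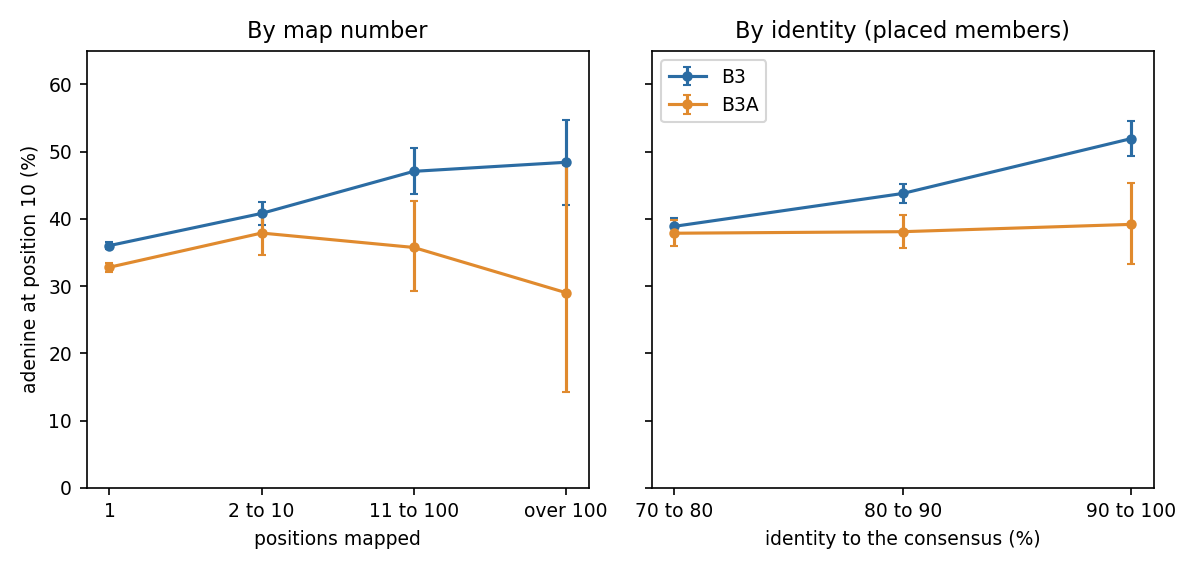
Share of B3 and B3A sequences of 24 to 33 nt with adenine at position 10, by the number of positions mapped (left) and by identity to the consensus among placed members (right), with 95% intervals. B3 stands at 36.03% at 1 position and at 48.4% above 100, and at 51.9% for identity of 90 to 100%; the B3A intervals overlap across identity classes.

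Members that mapped to 1 position were matched to annotated transcripts, which places only those in mature RNAs. Of 51987, 6122 (11.8%) matched, 6023 of them to a single gene, in 1148 genes. They ran in the direction of the gene in 86.6% (85.7 to 87.5), 5217 sense and 806 antisense. Without Gm43353, which holds 266 of the antisense members, the sense share was 90.6% (89.8 to 91.4). The 3' UTRs of 490 coding genes held 3109 sense members, 51.6% of all members matched to a single gene, and those of 95 coding genes held 176 antisense ones. Long noncoding RNAs held 1623 sense (26.9%) and 505 antisense members, whereas coding sequence held 22 sense members and 5' UTRs 65. No other list stands beside these strand and region shares, so they are not shown to be particular to B3 and B3A.

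Members in 3' UTRs ran in the direction of the gene whichever way the element lay. Of 783 placed members in the sense direction of a 3' UTR, 387 were sense and 396 antisense to the element, 49.4% sense (45.9 to 53.0). Grouping placed members into insertions gave 572, of which 288 lay in the gene's direction and 284 against it. Insertions in the gene's direction held 591 members sense and 212 antisense to the gene, and insertions against it held 836 and 77; of the 212 antisense members, 134 came from 1 insertion in Gm43353. In long noncoding RNAs, 168 of 528 placed sense members were sense to the element (31.8%), while their insertions were 72 in the direction of the gene and 78 against it; 1 insertion against the direction of Gm21269 alone held 102. The median insertion held 1 member and the fullest 135.

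A few genes held many of the members. The 10 fullest genes had 27.1% of members matched to a single gene and 62 genes had 50%, while 551 genes had 1 member each. The noncoding gene AC140207.2 on chromosome 18 was first with 460 sense and 52 antisense members, at 261 5' ends. Gm43353 followed with 4 sense and 266 antisense members within chr5:113325061-113325275, and Gm21269 with 207 sense members and none antisense. T stood first in 49.6% of the Gm43353 members, 62.9% of those of AC140207.2 and 65.7% of those of Gm21269, all below the 76.5% of members that mapped to 1 position. Gm43353 also had A at position 10 in 15.9% and AC140207.2 in 45.7%.

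The other 7 of the 10 were sense only. 4933414I15Rik had 111 members in its 3' UTR and D130017N08Rik, a long noncoding RNA, 106. Cbl, a ubiquitin ligase that acts on tyrosine kinase receptors, had 110 members in its 3' UTR within chr9:44149215-44149478. Sntb2, a syntrophin of the dystrophin complex, had 102, Cbx5, the heterochromatin protein HP1 alpha, had 86, the zinc finger factor gene Hinfp had 74 and Crkl had 54, each in the 3' UTR. In Cbl the 38 placed members were all sense to the element, while in Sntb2 (14), Cbx5 (19), Crkl (2) and 4933414I15Rik (16) all placed members were antisense to it. Hinfp had 12 sense and 7 antisense.

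At single loci, pairs that overlap by 10 nt were few. Among 2431 plus-strand and 2154 minus-strand 5' ends with a position, 28 pairs overlapped by 10 nt, the highest number of the 30 overlaps tried, against a mean of 20.3 (SD 2.74, highest 25) at the others. AC140207.2 held 19 of the 28 and Gm43353 3. Without AC140207.2 there were 9 pairs at 10 nt against a mean of 6.59 (SD 2.10, highest 11), so that 10 nt was no longer the most frequent overlap. Downstream 5' ends did not gather next to 3' ends: of 5259 3' ends with a position, 7.05% (6.38 to 7.78) were followed by a 5' end on the same strand after 1 nt, and between 6.27% and 7.59% after 2 to 20 nt.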

How the data were processed

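The authors deposited 1 table for the whole series with 3 columns. Per the file headers these are a distinct sequence, the number of genomic positions it mapped to (a whole number of another kind than a read count) and an annotation. The library of each sequence, the aligner, the genome build and the annotation source are not given in the sources used here. Of the 3 columns 0 belonged to a single sample, so the planned comparisons of homozygous with heterozygous libraries were not made.

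The members and lists were chosen with earlier results of these data known. Values were computed with Python 3.11.15, numpy 2.4.6, pandas 2.3.3, scipy 1.17.1 and numba 0.67.0. A 5' end is the first 20 nt. A partner at an overlap of 10 to 20 nt is a 5' end whose first 10 bases are complementary, in reverse, to the 10 bases that close the overlap. The consensus was extended base by base from frequent words of 11 (B3) or 9 bases (B3A) and refined in 8 rounds without gaps. Sequences with map number 1 were matched exactly to GENCODE M21 transcripts (GRCm38), without introns or intergenic sequence; placed members of a gene on 1 element strand with starts up to 250 nt apart formed an insertion. Genes and windows of 50 kb were ranked by members, and the 10 fullest genes are named. Printed pairs and 5' ends were those with most length variants, with map number 1 and 1 position outside chromosome 18, and box examples the first in alphabetical order that begin with T. Scripts were checked on simulated data.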

Additional observations from a re-analysis of the deposited data

Results flagged for a closer look

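Members also occurred outside the labelled size range of 19 to 33 nt. There were 8831 B3 and B3A sequences of 15 to 18 nt, which began with T in 28.2% and mapped to 1 position in 15.8%, and 181 sequences of 34 to 36 nt, which began with T in 67.4% (60.1 to 74.2) and had A at position 10 in 46.4% (39.0 to 54.0). They were singled out because the size selection in the labels does not cover them, and the comparisons above do not use them. Both shares beginning with T were below that of piRNA-length members (76.2%, 75.8 to 76.5). In the shorter class a B3A sequence of 15 nt mapped to 1779464 positions.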

How the results depend on the processing

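The share of members beginning with T (76.2%) was 76.8% for 25 to 32 nt, 75.1% with 1 sequence per 5' end and 73.1% for map numbers above 1, and moved by less than its interval under the other settings. A at position 10 (35.5%) was 34.8% for map number 1, 36.8% for B3 alone, 33.0% for B3A alone, 34.3% with 1 sequence per 5' end and 41.4% for map numbers above 1. The ratio of partners at 10 nt to the mean of longer overlaps (1.45) was 1.48 for 25 to 32 nt, 1.50 for map number 1, 1.53 for B3 alone, 1.56 for B3A alone, 2.38 for ends with A at position 10 and 1.35 with A required at every pairing base and 1.28 with A barred there, both chosen after seeing the data. With A required at position 10 alone, the value at 10 nt is raised by that choice. With A barred at position 10 alone, the ratio was 0.904 for map number 1, where that choice lowers the value at 10 nt. The sense share by box B (33.3%) was 43.6% by the consensus and 38.9% for B3 by the consensus; it was on the other side of 50% for B3A by the consensus, at 57.8%, and at 60.8% with at least 80% identity, which were also chosen after seeing the data. The cause of this difference was not tested. With 1 sequence per 5' end the consensus gave a sense share of 39.8% for B3 and 54.6% for B3A. The 10 fullest windows held 26.7% of located members, and 24.6% for windows of 10 kb. Without the gene that held most of them, 9 of the 28 same-locus pairs were left. A comparison of 16 bases was not run, since a 10 nt overlap holds only 10. No paired analysis was possible because the pooled list carries no sample. Values rest on distinct sequences: reads per sequence, depth and library are unknown, a consensus built from the members places 30.2% of them, and only members in annotated transcripts have a position.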
